A study of Mus musculus with 10 samples.

Results

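Among the stronger autosomal regions of the histone mark H3K27ac in mouse cerebral cortex, 500 differed most from one littermate pair to the next. These 500 regions are described here. They came from 50898 regions of one deposited table, of which 23989 lay on autosomes and averaged at least 60 pseudo-counts over 10 libraries (the eligible regions). Pseudo-counts are read counts that the authors adjusted to a common library size. For each eligible region, log2(pseudo-count + 1) was averaged over the wild-type (WT) and the heterozygous (Het) animal of each pair. The SD of the 5 pair means was taken, and the 500 regions with the largest SD were kept. The differences between pairs therefore chose the regions and are given below as a description, with no test. The class, width and position of a region, and the difference between littermates of unlike genotype, were not used in the choice.

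H3K27ac was measured by ChIP-seq, with the antibody Abcam ab4729, in the cerebral cortex of C57BL/6J mice aged 8 weeks. The mice were heterozygous knockouts of Dnmt3a (n = 5) or WT littermates (n = 5), each library coming from 1 animal. Pairs 650, 119 and 726/728 were male and pairs 651 and 141 female. The labels name no promoter, driver or tissue restriction of the knockout. The description of the Het animal of pair 726/728 holds the term cKO, while its genotype label reads heterozygous knockout. The labels give that pair's animals different numbers (726 and 728), and the column names of the table join them. The labels do not give litter, dissection or sequencing dates. Each sex is a set of pairs, so pair, sex and anything else shared by littermates cannot be told apart.

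Acetylation of histone H3 at lysine 27 is laid down by the acetyltransferases CBP and p300 and is found at active promoters and active enhancers. At enhancers its level differs between cell types and follows the activity of the cell, while at many promoters of widely used genes it is more alike across tissues. Dnmt3a is a de novo DNA methyltransferase that is known for methylating neuronal DNA after birth. The cortex holds neurons, oligodendrocytes, astrocytes, microglia and vascular cells, and a bulk library sums over all of them. Fewer cells of a type and less of the mark per cell therefore cannot be told apart in these values. The regions carry 3 classes in the table. The class enh is read here as enhancer and prom as promoter, while uaProm is not spelled out in the sources used here. The regions are in mm9 coordinates, and gene names were not assigned.

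Reads in regions ranged from 2771534 to 8453140 per library. The pairs that led the list were of mixed depth. Pair 726/728 held the shallowest library (WT, 2771534 reads) and a deep one (Het, 6262904 reads), and pair 141 had 7066095 and 5082814 reads. The median member held 51 reads in the WT library and 120 in the Het library of pair 726/728. In pair 141 it held 75 in WT and 60.5 in Het. A library of few reads gives a less precise value, and the authors' adjustment draws such values towards the mean of their genotype.

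The members spanned a wide range of differences. The SD of the 5 pair means ran from 0.332 to 0.845 on the log2 scale, with a median of 0.363, where the median eligible region had 0.146. The highest pair exceeded the lowest by 1.62-fold to 4.26-fold, with a median of 1.90-fold against 1.28-fold over the eligible regions. These folds are ratios of pair means of pseudo-count + 1. The SD of single animals within pairs, after removal of the mean genotype difference, had a median of 0.196 in the members and 0.138 in the eligible regions. The SD between pairs exceeded the SD within pairs in 485 members (97.0%) and in 54.5% of the eligible regions. The rule chose members for a large SD between pairs, so the members' share follows from the choice. The SD between pairs is taken over means of littermates and the SD within pairs over single animals, so the measures are not alike.

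The limit at 500 regions fell in a continuum. The last 3 members were the enh regions chr9:43038265-43042443, chr7:130488665-130494216 and chr13:3652406-3656246. The first regions outside were the enh regions chr3:131128060-131134984 and chr3:135632833-135637125 and the prom region chr5:141040617-141045239. All 6 had an SD of 0.332.

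Pair 726/728 and pair 141 set most of the pattern, usually at opposite ends. Pair 726/728 was highest in 313 members and lowest in 91. Pair 141 was lowest in 331 and highest in 44. Over the eligible regions these pairs were also the extremes more often than the others, but evenly in both directions. There, pair 726/728 was highest in 29.1% and lowest in 26.2%, and pair 141 was highest in 24.5% and lowest in 24.4%. The median deviation from the mean of the 5 pairs was 0.40 in pair 726/728, 0.19 in pair 650, -0.04 in pair 119, -0.07 in pair 651 and -0.42 in pair 141. The order 726/728, 650, 119, 651, 141 from highest to lowest was found in 127 members, and the same order with 119 and 651 exchanged in 86.

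Which end a pair took depended on the scale. With median-of-ratios factors in place of the deposited scale, the median deviation over the eligible regions moved to 0.07 in pair 141 and -0.03 in pair 726/728, from -0.0004 and 0.003. Among the 500 regions then chosen, pair 726/728 was lowest in 265 and highest in 165, and pair 141 was highest in 213 and lowest in 149. After loess on signal density, pair 726/728 was highest in 210 and lowest in 190, and pair 141 lowest in 183 and highest in 104. With a minimum mean of 120, pair 726/728 was highest in 228 and lowest in 227, and pair 141 lowest in 199 and highest in 176. The counts that follow are on the deposited scale.

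**Figure D1:**
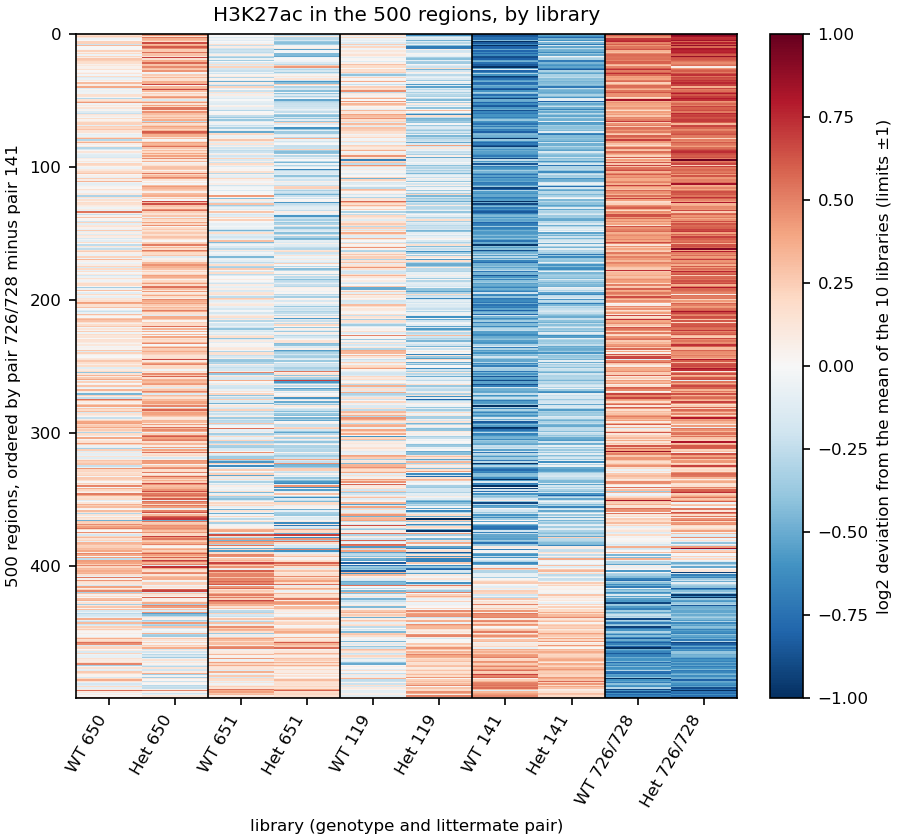
H3K27ac in the 500 regions (rows, ordered by pair 726/728 minus pair 141) in the 10 libraries (columns, WT and Het side by side within each pair). Colour is the log2 deviation of log2(pseudo-count + 1) from the region's mean over the libraries, limited to ±1. Most rows are high in both animals of pair 726/728 and low in both of pair 141, and the rows at the bottom show the opposite.

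The members fell into a few profiles. Pair 726/728 was highest and pair 141 lowest in 262 members (52.4%, against 13% of the eligible regions). In this profile the median log2 deviation was 0.42 in the WT and 0.57 in the Het animal of pair 726/728, and -0.57 and -0.38 in those of pair 141. The profile was 63.4% enh, with a median signal density of 16.7 pseudo-counts per kb. Eligible regions of the same profile had 55.3% and 20.6. Pair 650 was highest and pair 141 lowest in a further 52 members (10.4%, against 5.57% of the eligible regions). Of these, 38 were enh (73.1%, against 67.3% of the eligible regions of this profile). Pair 726/728 was highest with another pair than 141 lowest in 51 members (10.2%, against 16.1% of the eligible regions). Here 41 were enh (80.4%, against 49.5% of the eligible regions of this profile).

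The opposite profile was made of other kinds of region. Pair 141 was highest and pair 726/728 lowest in 42 members (8.4%, against 11.4% of the eligible regions). Of these, 30 (71.4%) were prom and 9 enh. Their median mean was 173 pseudo-counts and their median density 42.1 pseudo-counts per kb, well above the 17.7 of all members. The eligible regions with the same profile were similar, at 66.3% prom and 39.0 pseudo-counts per kb. Pair 651 was highest and pair 726/728 lowest in 33 members (6.6%, against 6.21% of the eligible regions), 25 of them enh, 3 prom and 5 uaProm. The enh share was 75.8%, against 59.5% of the eligible regions of this profile. Pair 726/728 was lowest in 10 of the 20 uaProm members, against 291 of the 1051 eligible uaProm regions.

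In most members no pair stood alone. The pair farthest from the mean took a median of 52.9% of the sum of squares between pairs, against 51.1% over the eligible regions. A single pair took more than 70% in 55 members (11%, against 8.76% of the eligible regions). Of these, pair 726/728 stood above the others in 18 and below them in 26. Pair 141 stood below in 7 and pair 119 below in 4.

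The largest SD of all belonged to the enh region chr2:102622019-102625958, at 0.845. In the order 650, 651, 119, 141 and 726/728, which is used throughout, the WT animals had 56.9, 43.0, 43.5, 38.2 and 258 pseudo-counts. The Het animals had 62.9, 61.2, 45.9, 42.6 and 119. Both animals of pair 726/728 thus lay above every other library, by unequal amounts, and the other 8 libraries lay close together. The pair's mean was 4.26 times that of pair 141, the lowest.

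The second region, the uaProm chr7:68756481-68760798, was low in the same pair, with an SD of 0.643. Its WT values were 109, 112, 92.4, 104 and 41.0 pseudo-counts. Its Het values were 103, 103, 87.0, 99.3 and 33.7. Littermates lay close together here, with a within-pair SD of 0.0607, and the 2 libraries of pair 726/728 were below all others without overlap. Pair 726/728 took 78.0% of the sum of squares between pairs.

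The enh regions chr1:83390762-83393983, chr7:120476375-120482039 and chr14:111883534-111887621 were also lowest in pair 726/728, with SDs of 0.632, 0.544 and 0.526. In chr1:83390762-83393983 the WT animals had 84.6, 73.7, 52.8, 51.5 and 37.5 pseudo-counts and the Het animals 80.6, 85.8, 65.5, 60.9 and 19.5. In chr7:120476375-120482039 the WT animals had 109.8, 134, 81.8, 89.4 and 44.6 and the Het animals 123, 140.1, 129, 95.4 and 56.9. In chr14:111883534-111887621 the WT animals had 85.3, 71.8, 61.2, 56.5 and 32.5 and the Het animals 67.8, 89.6, 58.0, 58.7 and 30.4. In all 3 regions both animals of pair 726/728 lay below the other 8 libraries, and pairs 650 and 651 were the highest pairs. Male pair 650 and female pair 651 thus stood on the same side, and male pair 726/728 on the other.

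The other 5 of the 10 largest SDs had pair 726/728 highest and pair 141 lowest. The prom region chr5:124327185-124330856 (SD 0.552) had 67.0, 59.5, 65.4, 32.2 and 90 pseudo-counts in WT and 80.6, 49.8, 38.2, 40.4 and 112 in Het. The Het animal of pair 119 was slightly below that of pair 141 there, so the order of the pairs did not hold in each genotype. The prom region chr5:137753764-137756689 (SD 0.507) had 72.1, 61.2, 58.0, 33.9 and 85.1 in WT and 67.8, 66.2, 49.6, 39.4 and 109.9 in Het. Both genotypes had the same highest and lowest pair in this promoter.

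The remaining 3 were enh regions. In chr17:31224013-31228537 (SD 0.527) the WT animals had 76.8, 63.8, 59.2, 36.3 and 92.4 pseudo-counts and the Het animals 103, 48.5, 53.7, 47.1 and 112. In chr13:41428397-41432429 (SD 0.514) the WT animals had 63.9, 53.4, 67.5, 34.8 and 79.8 and the Het animals 84.6, 48.4, 54.4, 33.9 and 98.1. In chr17:87747884-87754038 (SD 0.506) the WT animals had 100.1, 67.7, 75.2, 37.6 and 108 and the Het animals 105, 77.1, 59.8, 71.3 and 148. The last of these shows how far littermates can part within a member. The WT animal of pair 141 was lowest of all, while its Het littermate lay above the Het animal of pair 119.

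**Figure D2:**
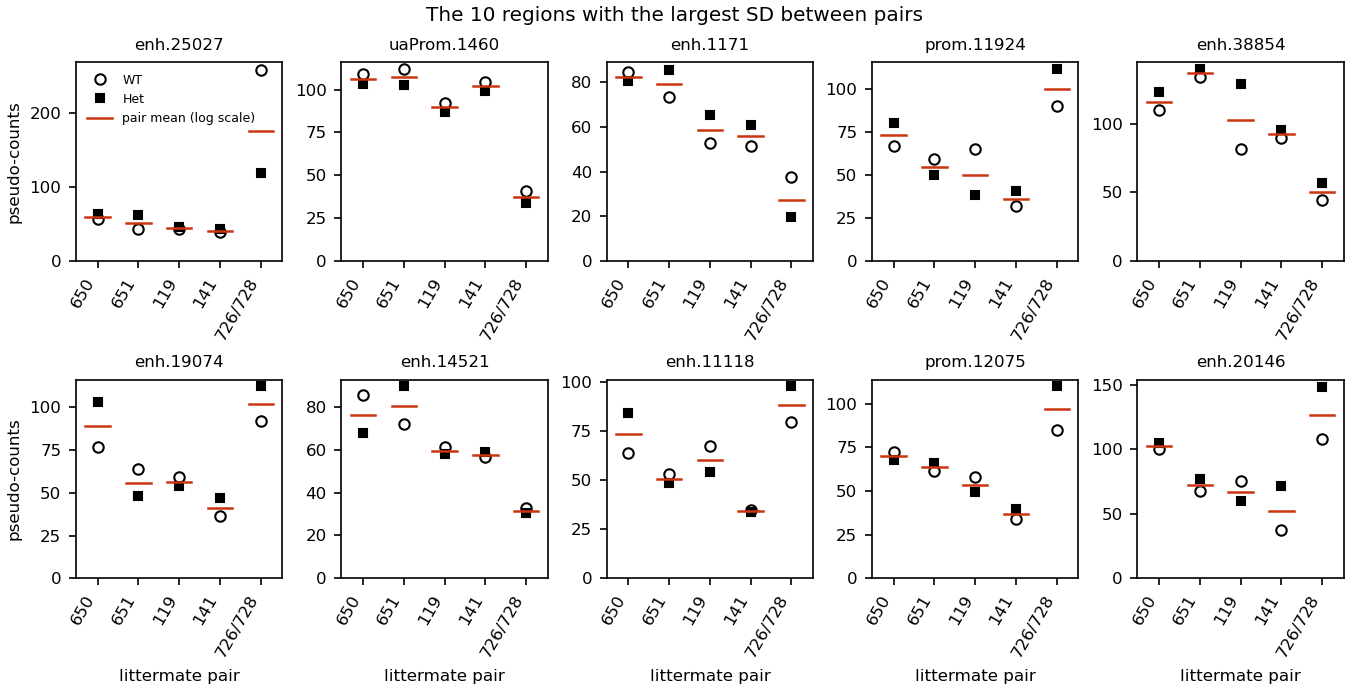
Pseudo-counts (vertical axis, from 0) of the 10 members with the largest SD, by littermate pair (horizontal axis). Circles are WT animals, squares Het animals and lines the pair mean taken on the log scale. Pair 726/728 is the highest pair in 6 panels and the lowest in 4, and in most panels the littermates lie close together relative to the spread between pairs.

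Regions that stood out in the other pairs were less extreme. Pair 650 lay farthest above the others in the enh region chr10:108179928-108185784, with WT values of 119, 102, 61.6, 101.3 and 65.5 pseudo-counts and Het values of 137, 81.1, 65.8, 86.3 and 63.6. Pair 651 lay farthest above in the prom region chr3:40752767-40755271, with 67.8, 119, 61.5, 53.3 and 87.1 in WT and 88.4, 123, 60.5, 62.4 and 70 in Het. Pair 119 lay farthest above in the prom region chr12:70268914-70270405, with 65.4, 71.3, 110.0, 72.7 and 53.1 in WT and 71.7, 68.9, 108, 87.2 and 58.3 in Het. In each of these 3 regions both animals of the named pair exceeded all other libraries.

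Low outlying pairs gave a similar picture. The enh region chr9:52209407-52212252 was lowest in pair 650 (WT 49.9 and Het 50 pseudo-counts), although the Het animal of pair 141 came close at 50.3. The prom region chr5:115346334-115349157 was lowest in pair 651, at 42.5 in WT and 41.3 in Het, where the other libraries held 53.4 to 83.4. The enh region chr19:42429485-42433568 was lowest in pair 119, at 43.5 and 47.6, where the others held 67.4 to 104. The prom region chr2:34225910-34229004 was lowest in pair 141, at 36.5 and 58.2, and the others held 72.3 to 119. Pair 141 lay farthest above the others in a strong promoter, chr7:4792659-4797284, with 564 in WT and 509 in Het, against 286 and 267 in pair 726/728. The Het animal of pair 119 had 510.4 there and was level with the Het animal of pair 141.

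Enhancers made up most of the list. Of the 500 members, 312 were enh (62.4%), 168 prom (33.6%) and 20 uaProm (4.00%), where the eligible regions were 46.2% enh, 49.4% prom and 4.38% uaProm. Wilson 95% intervals for the members' shares were 58.1% to 66.5% for enh and 29.6% to 37.9% for prom, and they cover counting error only. Put the other way, 2.82% of the eligible enh regions, 1.42% of the prom regions and 1.90% of the uaProm regions were members. The median SD was alike in the 3 classes of members, at 0.364, 0.362 and 0.352 for enh, prom and uaProm. This class share rested on the minimum signal and the scale. With a minimum mean of 120 in place of 60, enh regions were 33.2% of the 500 and 35.0% of the 12692 regions they were chosen from. With median-of-ratios factors they were 43.6% of the 500, below the 46.2% of the eligible regions. The share also went with signal density. From density decile 1, the least dense, to decile 7, members were less often enh than the eligible regions of the same decile. The shares were 75.5% against 82.6% in decile 1 and 14.3% against 25.3% in decile 7. In decile 9, with 8 members, they were 12.5% against 3.33%.

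Members were weaker rather than narrower than the eligible regions. Their median mean was 81.6 pseudo-counts against 126, and their median density 17.7 pseudo-counts per kb against 26.5. Their median width was 4646.5 bp against 4706 bp. By class, members of enh were narrower than eligible ones (4720.5 against 5183 bp) and members of prom and uaProm wider (4476.5 against 4065 bp, and 5837 against 4068 bp). The density was lower in every class. It was 16.7 against 20.5 pseudo-counts per kb in enh, 21.1 against 37.8 in prom and 23.5 against 32.5 in uaProm. Members were rare at both ends of the width range, with 21 in the narrowest decile of the eligible regions, 79 in the fifth decile and 12 in the widest decile. A narrow region must be dense to reach the minimum mean, and members were rare among dense regions. The scarcity of narrow members therefore cannot be read apart from that minimum. With minimum means of 20 and 120, the median width of the regions then chosen was 1731 and 7172 bp.

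Strong and wide members existed nonetheless. The member with the highest mean was the prom region chr2:180623572-180633489, at 911 pseudo-counts, with 783, 791, 1057, 1226 and 759 in WT and 660.0, 893, 1208, 1107 and 629 in Het. It belonged to the profile with pair 141 highest and pair 726/728 lowest, and pair 119 lay close to pair 141. The widest was the prom region chr13:31892580-31917503, of 24923 bp, with 722, 619, 905, 486 and 839 in WT and 747, 539.8, 707, 516 and 906 in Het. Here pair 726/728 was highest and pair 141 lowest. The narrowest member, chr12:70268914-70270405, was 1491 bp wide and is the promoter in which pair 119 stood highest. The lowest mean, 60.1 pseudo-counts, was in the prom region chr7:151921857-151925629.

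Signal density ordered both the share of members and the direction of the pair difference. From the least dense to the densest decile of the eligible regions, members numbered 188, 95, 57, 45, 36, 33, 14, 9, 8 and 15. They made up 7.84% of the least dense decile and 0.625% of the densest. In the least dense decile 75.5% of the members and 82.6% of the eligible regions were enh. Over all eligible regions, the median log2 difference of pair 726/728 minus pair 141 was lower in each denser decile, from 0.28 in the least dense to -0.27 in the densest. The same slope was present in both genotypes, from 0.30 to -0.23 in WT and from 0.27 to -0.33 in Het. The deciles were also graded in the other pairs. Median deviations went from 0.15 to -0.11 in pair 650 and from -0.11 to 0.13 in pair 119, while pair 651 stayed between 0.03 and -0.04.

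**Figure D3:**
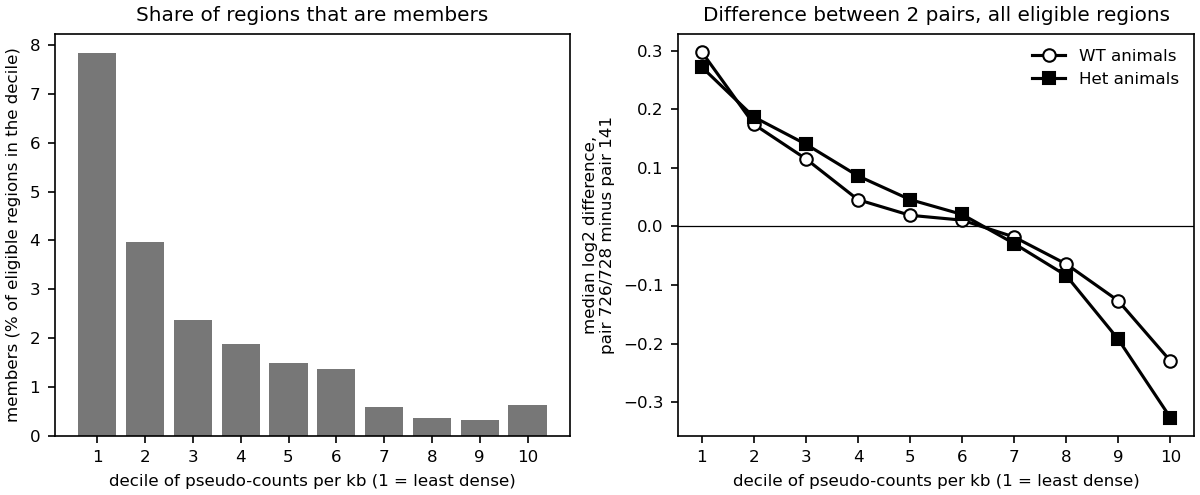
Left, members as a percentage of the eligible regions in each decile of pseudo-counts per kb, from 7.84% in the least dense to 0.625% in the densest. Right, the median log2 difference between pair 726/728 and pair 141 over the eligible regions of each decile, for WT (circles) and Het (squares), which goes from 0.30 to -0.23 in WT and from 0.27 to -0.33 in Het.

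How signal was spread over regions of unlike strength also differed by pair. The strongest 5% of all regions held 30.4%, 30.1%, 31.5%, 33.6% and 30.5% of the signal in the WT animals and 28.2%, 31.0%, 33.2%, 32.4% and 29.5% in the Het animals. Pairs 119 and 141 thus had the more concentrated libraries in both genotypes. The least dense decile of the eligible regions held 3.99% and 4.43% of the signal in the WT and Het animals of pair 141, against 5.11% and 5.61% in pair 726/728. The regions were then chosen again after a loess adjustment of each library for density. Of the members, 294 (58.8%) stayed, as did all 10 with the largest SD. Of the 262 members with pair 726/728 highest and pair 141 lowest, 131 (50%) stayed. Of the 33 with pair 651 highest and pair 726/728 lowest, 33 stayed.

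Members lay near one another more often than the other eligible regions lay near a member. Another member was within 100 kb, edge to edge, of 112 members (22.4%), and a member was within that distance of 1950 of the 23489 other eligible regions (8.30%). At 5 kb the shares were 6.40% and 0.851%, at 20 kb 10.6% and 2.27%, and at 1 Mb 51.0% and 44.6%. Any eligible region lay within 100 kb of 92.4% of members and 93.3% of the others, within 20 kb of 68.2% and 65.4%, and within 5 kb of 38.2% and 32.3%. The share within 100 kb depended on the scaling. With median-of-ratios factors in place of the deposited scale, it was 13% of the 500 regions then chosen.

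Chained at 100 kb, the 112 neighbouring members formed 50 groups, 40 of 2 members, 8 of 3 and 2 of 4, and 388 members stood alone. All members of a group shared the highest pair in 33 groups, the lowest pair in 39 and both in 25. Much sharing would arise without nearness, as 1 profile was common. Over all members, pair 726/728 was highest in 62.6%, pair 141 lowest in 66.2%, and both held in 52.4%. The share of members by chromosome ran from 0.872% on chromosome 19 (6 of 688 eligible regions, Wilson 95% interval 0.400% to 1.89%) to 2.59% on chromosome 17 (27 of 1043, interval 1.79% to 3.74%). The share over all autosomes was 2.08%.

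The group of 4 members with the highest mean SD covered chr2:26380155-26412839, 32684 bp that held 4 eligible regions, all of class enh and all members. Pair 726/728 was highest and pair 141 lowest in each. The widest of them, chr2:26395638-26406097, had 142, 144, 142, 87.1 and 239 pseudo-counts in WT and 189, 121, 131, 106 and 246 in Het. Deviations of pair 726/728 along the group were 0.49, 0.51, 0.72 and 0.59, and those of pair 141 -0.51, -0.38, -0.61 and -0.56. The profile of the outer pairs was thus shared by the whole run of enhancers, while pair 651 ranged from -0.29 to 0.07.

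The other group of 4 covered chr11:76102649-76213474, 110825 bp with 2 enh, 1 prom and 1 uaProm region, and all 4 eligible regions there were members. Pair 141 was lowest in each, with deviations of -0.65, -0.49, -0.59 and -0.61. The highest pair alternated between 726/728 and 119. In the prom region chr11:76211059-76213474 the WT animals had 74.6, 73.2, 97.3, 44.3 and 77.9 pseudo-counts and the Het animals 67.8, 56.7, 85.7, 44.8 and 86.9. In the uaProm region chr11:76169803-76178443 they had 146, 124, 158, 89.9 and 147, and 170.0, 98.1, 159.6, 96.9 and 163. Pair 141 was thus below all other pairs in regions of each class along this stretch.

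Among the groups of 3, chr9:63803355-63871283 and chr7:105650415-105693821 also had every eligible region as a member, with pair 726/728 highest and pair 141 lowest throughout. The first held 2 enh and 1 prom region and the second 3 enh regions. Deviations of pair 726/728 were 0.63, 0.34 and 0.58 in the first and 0.59, 0.57 and 0.65 in the second. The group at chr13:94827052-94914898 was mixed, with 3 members among 6 eligible regions. Its prom region chr13:94827052-94829431 had 75.4, 64.3, 81.5, 45.9 and 114 pseudo-counts in WT and 57.9, 53.0, 54.8, 66.5 and 113 in Het, so pair 726/728 stood apart from the others in both genotypes. The enh region chr13:94861465-94865457, inside the same stretch, had an SD of 0.0718 and values between 65.2 and 84.8 in the 10 libraries.

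Regions near a member that were not members themselves leaned the same way, and less so with distance. The pair farthest from the mean in a member had a median deviation of 0.54 there, counted in the member's direction. In non-member regions within 5 kb the same pair had 0.20, with 81.2% of 202 regions on the member's side. The median was 0.15 from 5 to 20 kb, 0.08 from 20 to 100 kb, 0.03 from 100 to 500 kb and 0.01 from 0.5 to 2 Mb, where 52.5% were on the same side. A region that neighbours several members entered more than once.

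**Figure D4:**
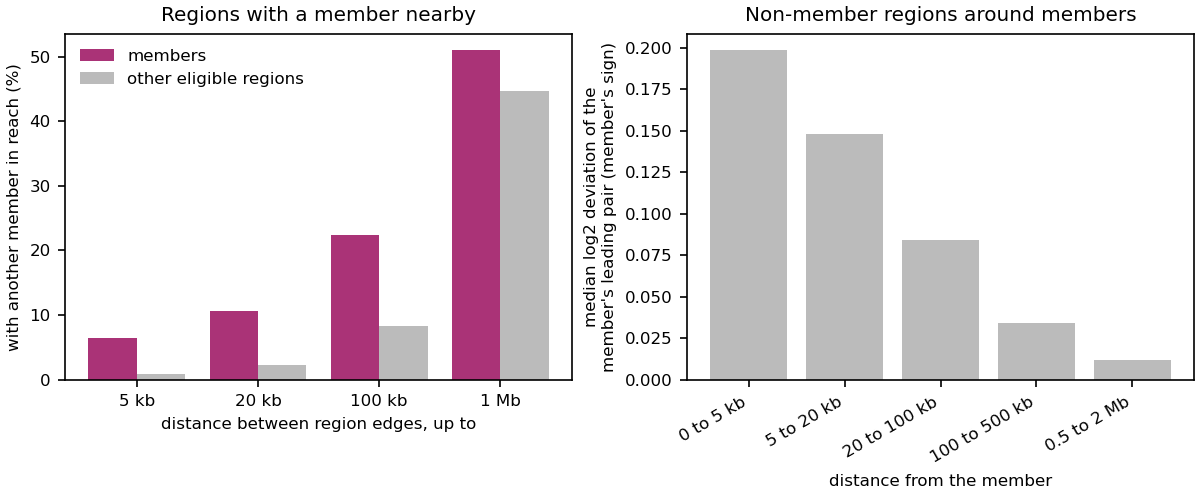
Left, the percentage of members and of other eligible regions with another member within 5 kb, 20 kb, 100 kb and 1 Mb, with 22.4% against 8.30% at 100 kb. Right, the median log2 deviation, in non-member regions, of the pair that is farthest from the mean in the member, by distance, which goes from 0.20 within 5 kb to 0.01 beyond 500 kb.

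None of the 20 eligible regions next to the 10 members with the largest SD, 1 on each side, was a member. The prom region chr5:137753764-137756689 still had a member within 100 kb and formed a group of 2 with it. Around chr2:102622019-102625958, pair 726/728 deviated by -0.05 in the region 7224 bp before and by -0.08 in the region 155578 bp after, against 1.47 in the member itself. The enh region chr13:41428397-41432429 had a neighbour at 1400 bp in which pair 141 deviated by -0.10, against -0.75 in the member. The neighbour of chr7:120476375-120482039 at 5781 bp came closest to its member, with -0.48 against -0.90 in pair 726/728.

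WT and Het littermates agreed in most members, as the averaging in the rule favours. A WT and a Het animal are said to be on the same side when both lie above, or both below, the mean of the 5 animals of their own genotype. Over all pairs this held in 77.2% of cases in the members and in 63.0% in the eligible regions. By pair it held in 74.2% of the members in pair 650, 71.4% in pair 651, 50% in pair 119, 94.6% in pair 141 and 96.0% in pair 726/728. The eligible regions had 61.9%, 57.4%, 55.3%, 70% and 70.5%. The littermates of pair 119 were thus on the same side in a smaller share of the members than of the eligible regions, and those of pairs 141 and 726/728 in a larger one. All 5 pairs were on the same side in 110 members (22.0%), against 11.2% of the eligible regions.

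Across the 500 members, the deviations of littermates correlated at 0.36, 0.63, 0.28, 0.76 and 0.87 in the 5 pairs. The Het animal of pair 119 correlated better with an animal of another pair than with its littermate. These are correlations over regions that share libraries and were chosen together, and they carry no test. The highest pair was the same in WT and Het in 309 members (61.8%, against 35.0% of the eligible regions). The lowest pair was the same in 315 (63.0%, against 33.5%). The averaging in the rule favours both. In pair 119 the WT and Het animals had medians of opposite sign over the members, 0.05 and -0.11, while they were on the same side in 50% of the members. In pair 141 the medians were -0.50 and -0.29, and in pair 726/728 0.31 and 0.47.

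**Figure D5:**
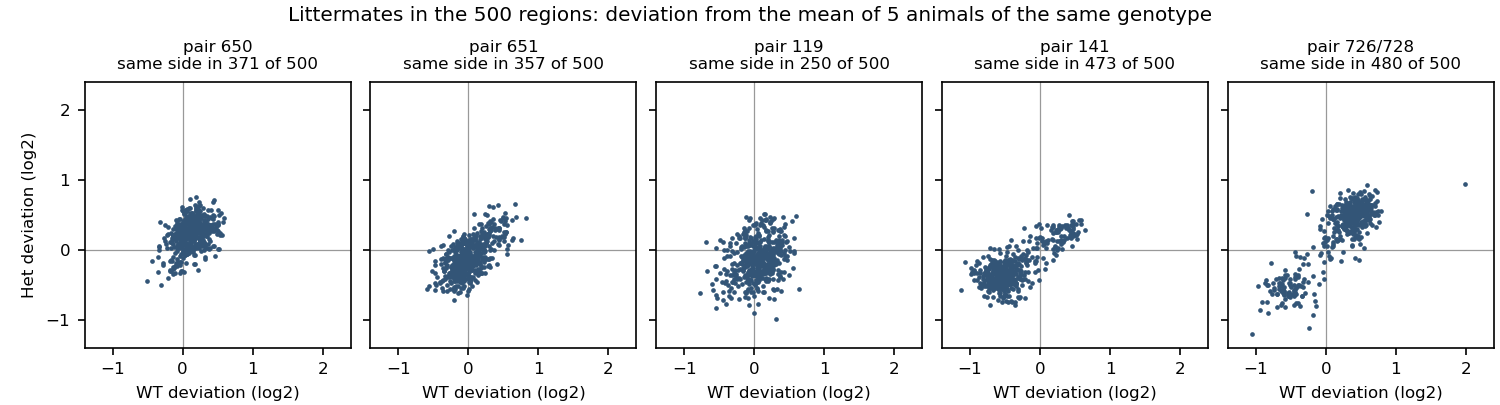
Log2 deviation of the Het animal (vertical axis) against that of its WT littermate (horizontal axis), each from the mean of its own genotype, for the 500 members in each pair. Points crowd the lower left in pair 141 and the upper right in pair 726/728, with the same side in 473 and 480 of 500, and show no preferred quadrant of agreement in pair 119, with 250.

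In a further reading, 500 regions were chosen on the 5 WT animals alone and read in the Het animals, and the reverse. The minimum mean still rested on all 10 libraries, and the eligible regions beside them were not matched for signal or density. The shares of littermates on the same side, and of the same highest pair, also use the values that chose the regions. Regions chosen on WT had a median SD over the Het animals of 0.322, against 0.182 over all eligible regions. Regions chosen on Het had a median SD over the WT animals of 0.306, against 0.172. The littermates were on the same side in 72.6% and 70% of cases, against 63.0% of the eligible regions. Pairs 141 and 726/728 had 87.8% to 88.8% on the same side in both readings. Pair 119 had 45% and 40.4%. The Het animals had the same highest pair as the WT animals in 248 of the regions chosen on WT (49.6%, against 35.0% of the eligible regions). The 2 lists shared 127 regions, and 279 and 253 of their regions were among the members.

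The pairs also differ in sex, a contrast that the rule used. Both female pairs lay below all 3 male pairs in 221 members (44.2%, where the eligible regions had 13.7%) and above them in 34 (6.80%, where the eligible regions had 12.4%). Among single animals, the 4 females lay below the 6 males in 82 members (16.4%, against 3.37%) and above them in 6 (1.2%, against 1.28%). Male minus female pairs had a median of 0.44 on the log2 scale. Of the 221 regions low in female pairs, 125 were enh, against 312 of all 500 members and 1467 of the 3293 eligible regions low in female pairs. Choosing the regions again after removal of the mean of each sex kept 259 members (51.8%), including all 10 with the largest SD, and 8.20% of the regions then chosen were parted by sex.

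No member differed between Het and WT at an adjusted p of 0.05 in limma with sex and genotype as terms, where 1 of 50898 regions did (0.00196%). The same count was 0 with the littermate pair as block, where 3 regions passed (0.00589%). Without the block, p is set against the spread between animals of the same sex and genotype. With the block, it is set against the spread of the Het minus WT differences from pair to pair. At an unadjusted p of 0.05, limma called 10 members (2.00%), against 2.10% of all regions and 1.74% of the eligible regions. With the pair as block it called 33 members (6.60%), 23 higher and 10 lower in Het, against 4.63% of all regions and 4.45% of the eligible ones. On whole reads recovered from the pseudo-counts, limma-voom called 11 members (2.2%) without and 32 (6.4%) with the block at this limit, where 2.21% and 4.26% of all regions passed, and 0 after adjustment in both. The fit without the block counts differences between pairs as spread, and the members were chosen for these: their median SE was 0.151 without the block and 0.117 with it, against 0.113 and 0.0971 in the eligible regions. In the authors' deposited table, 0 members had an FDR under 0.05, where 2 regions (0.00393%) did, and 5 members (1%) had a p under 0.05, against 1.35% of the eligible regions.

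The median log2 difference of Het minus WT over the members was 0.03, against -0.01 over the eligible regions, and it did not have one direction in the pairs. It was 0.14 in pair 650, -0.08 in pair 651, -0.19 in pair 119, 0.14 in pair 141 and 0.11 in pair 726/728. The sign also turned with single libraries. The median was -0.03 without the WT animal of pair 141 (39.8% of members higher in Het), -0.003 without the Het animal of pair 726/728 and 0.12 without the Het animal of pair 119. Leaving out the Het animal of pair 650 gave 0.002, that of pair 651 0.008 and that of pair 141 0.05. Leaving out the WT animal of pair 651 gave 0.09, that of pair 119 0.02 and that of pair 726/728 0.05. After loess on signal density it was -7.5e-05, and with median-of-ratios factors 0.008. Leaving out single libraries moved the count of 10 at the unadjusted limit. Without the Het animal of pair 119 it was 64 members (58 higher in Het), where 5.44% of all regions passed. It was 27 without the Het animal of pair 726/728 (2.2% of all regions passed), 24 without the WT animal of pair 651 (3.68%) and 18 without the WT animal of pair 726/728 (1.87%). The adjusted count stayed at 0 in each of these fits.

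The member with the smallest genotype p was the prom region chr5:77285407-77289112, where the WT animals had 48.5, 57.2, 43.1, 38.5 and 74.7 pseudo-counts and the Het animals 90.4, 64.0, 60.2, 59.1 and 108. The Het animal was above its WT littermate in 5 of 5 pairs, although the groups overlapped. The difference was 0.53 on the log2 scale (SE 0.165), with an adjusted p of 0.9999 in limma and of 0.404 with the pair as block. The enh regions chr10:110363741-110369596 and chr14:122109109-122113254 followed, at 0.43 and 0.44, with the Het animal higher in 4 and 5 of 5 pairs. In chr14:122109109-122113254 the WT animals had 64.5, 44.8, 49.4, 40.2 and 53.9 and the Het animals 92.4, 54.3, 67.4, 41.6 and 102. Neither passed the adjusted limit in limma, at 0.697 and 0.954 with the block.

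In the other direction, the enh region chr5:139695597-139698166 had 66.6, 61.8, 80.3, 46.2 and 93.3 pseudo-counts in WT and 64.9, 47.2, 43.7, 34.8 and 69.1 in Het. Each Het animal lay below its WT littermate, by a mean of -0.42 on the log2 scale (SE 0.154). The limma adjusted p was 0.9999, and 0.954 with the pair as block. The prom region chr9:14444284-14448187 had -0.35 and the enh region chr13:3652406-3656246, the last member of the list, -0.33, with 0 of 5 pairs higher in Het in both.

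Membership depended on which pairs were present. Without pair 726/728, 49.8% of the members were among the 500 regions then chosen, and without pair 141, 54.0%. Leaving out any other pair kept 84.2% to 85.4%. A set of 43 members stayed in the list whichever pair was left out, among them 5 of the 10 with the largest SD: chr5:124327185-124330856, chr17:31224013-31228537, chr13:41428397-41432429, chr5:137753764-137756689 and chr17:87747884-87754038. The other 5 of those 10, all farthest from the mean in pair 726/728, left when that pair was dropped. The profile with pair 141 highest and pair 726/728 lowest held none of the 43, and the profile with pair 726/728 highest and pair 141 lowest held 35.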

How the data were processed

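H3K27ac ChIP-seq libraries of cerebral cortex from 10 mice, 5 WT and 5 Het, were analysed, grouped by their genotype labels. Bowtie2, edgeR and the build mm9 are named in the submitters' processing notes, without versions; how regions were called and classed is stated nowhere in those notes. The authors deposited one signal value for each region and library, the pseudo-count, set to a common depth. Further columns hold, per the file headers, the authors' log2 fold change and log2 CPM, with p-value and FDR columns beside them. Pseudo-counts are quantile-adjusted around the mean of each genotype, which draws shallow libraries towards that mean and would hide a uniform change. Columns of per-sample values left unused numbered 0.

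Whole reads were recovered by inverting this adjustment at a common dispersion of 0.0151. All of 508980 values (100%) were whole to within 0.1 read, and 9 were 0. The steps are not linear, so the reads served for depth and alternatives only.

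Members are the 500 autosomal regions, with a mean of at least 60, whose 5 pair means of log2(pseudo-count + 1) had the largest SD. The members and lists were chosen with earlier results of these data known. Het minus WT was tested with limma 3.58.1 (R 4.3.3, trend, robust) on log2(pseudo-count + 1), which understates changes of weak regions, with sex and genotype as terms, all 10 libraries and Benjamini-Hochberg adjustment over 50898 regions. A count model had been foreseen only for counts. In data simulated for this comparison on 50898 regions, the fit without the block recovered 30.0% of 1.5-fold and 99.0% of 2-fold changes. With the block it recovered 44.0% and 99.0%. The changed regions were drawn from all regions with a mean of at least 60. Their simulated spread between pairs was smaller than that of the members (median SD 0.363). These shares therefore do not tell how many changes would be found in the members.

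The protocol names 5 littermate pairs, and the animals were paired by their label numbers. Animals 726 and 728 were paired because the column names join them. Across the eligible regions, deviations of littermates correlated at 0.31, 0.24, 0.15, 0.55 and 0.59 in pairs 650, 651, 119, 141 and 726/728 (replicates 1 to 5). The WT animal of every pair correlated best with its littermate. The Het animals of pairs 651 and 119 correlated better with an animal of another pair. These values do not test the pairing.

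Named regions were the 10 members of largest SD, the largest per class, the member farthest above and below in each pair, the 3 on each side of the limit, the 5 groups with the most members, the 3 of smallest p per direction, and the widest, narrowest, strongest and weakest members. Groups are members chained at 100 kb. Neighbours of named members, and chr13:94861465-94865457, were chosen after their values were seen. Alternatives were other scalings, minimum means, numbers kept, measures of spread, 1 genotype alone, removal of sex means and leaving out each pair or library. Density loess, recovered reads and limma-voom are additions chosen after seeing the data. As the reference tables at hand are of another build, gene lists, cell type markers, Dnmt3a and sequences were not analysed here. Python 3.11.15, numpy 2.4.6, pandas 2.3.3 and matplotlib 3.10.9 were used.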

Additional observations from a re-analysis of the deposited data

Results flagged for a closer look

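In 106 groups of 5 animals at named regions, 5 had 1 animal whose gap to the next exceeded Dixon's 95% limit of 0.71 of the range, a limit that chance passes in about 1 in 20. The same values chose the regions, so these gaps are a description and cannot be read against that share. All 5 animals belong to pair 726/728. At chr2:102622019-102625958 its WT animal had 257.7 pseudo-counts (others 38.2 to 56.9) and its Het animal 119.1 (others 42.6 to 62.9). At chr7:68756481-68760798 its WT animal had 40.97 (others 92.4 to 112) and its Het animal 33.65 (others 87.0 to 103). At chr13:94827052-94829431 its Het animal had 113.5 (others 53.0 to 66.5). In the first and second regions both littermates met the limit. Their cause was not tested.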

How the results depend on the processing

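The count of members past the adjusted limit was 0 in all 20 alternatives, and Het minus WT at the 6 regions named for it kept its sign in each of 19. With the pair as replicate block, 33 members passed the unadjusted limit in place of 10 (4.63% and 2.10% of all regions). It was 5 with genotype alone (1.77%), 32 with limma-voom and the block (4.26%), and 7 to 64 with 1 library left out (1.67% to 5.44%).

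Minimum means of 20 and 120 gave enh shares of 69.0% and 33.2% (62.2% and 35.0% of the regions chosen from), median widths of 1731 and 7172 bp, 9.40% and 15.8% of regions near another, and 4.6% and 20% of members shared; at 20, 24.4% were parted by sex. The median absolute deviation gave 53.4% enh, 5109 bp, 42.8% parted by sex and 36.6% shared. Median-of-ratios factors gave 43.6% enh, 13% near another, 38.6% parted by sex and 61.2% shared. Abundance loess gave 5100 bp and 57.6% parted by sex, and the SD relative to its trend on signal 53.4% enh and 5777.5 bp. Removing sex means gave 4364 bp, 17.2% near another, 8.20% parted by sex and 51.8% shared. WT alone gave 4360 bp, 16.2% near another, 45.2% parted by sex, 55.8% shared and 72.6% on the same side; Het alone gave 41.6% parted by sex, 50.6% shared and 70.04% on the same side. Keeping 250 regions put 16.4% near another; keeping 1000 gave 29.6% and 46.0% parted by sex. Distances of 20 kb and 1 Mb gave 10.6% and 51.0%. Density loess gave 54.8% enh, 4119 bp, 15.6% near another, 55.4% parted by sex and 58.8% shared; recovered reads gave 44.6% parted by sex.

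With 1 pair left out, enh regions were 59.4% to 66.6%, the median width 4398 to 4849.5 bp, regions near another 17.2% to 24.2%, those parted by sex 52.4% to 85.2% (85.2% without pair 651, 83.2% without pair 119), members shared 49.8% to 85.4% and littermates on the same side 78.6% to 84.8%. Fewer pairs are more easily parted by sex through their order alone. The shares parted by sex with 1 pair left out therefore cannot be compared with the share in the full set of pairs. The causes of the other shifts were not tested. Depth limits the members most in the WT animal of pair 726/728, where their median was 51 reads.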
